A study of Mus musculus with 2 samples.

Results

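Interferon-stimulated genes are the transcripts that cells make in large amounts once an interferon has bound its receptor. The 40 genes described here were listed by name as well-known members of this response, with earlier results of these data known. Of the 32285 gene rows of the count matrix, 39 carried a listed name. Mx1 was not analysed here. The 39 members held 103739 unique molecular identifiers (UMIs, each standing for 1 captured transcript), or 0.176% of all gene UMIs, in 10007 cells.

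The cells were thymocytes of mice on a C57BL/6 background, sorted from pools of 4 thymi as invariant natural killer T (iNKT) cells. T-KO mice carried a floxed Kidins220 gene and a Cre driven by the proximal Lck promoter, which acts from the DN2 stage on, and Ctrl mice were the comparison. Each genotype gave a stage 0 sort (CD24+ NK1.1-) and a stage 3 sort (CD24- CD44+ NK1.1+) of TCRβ+ cells that bound the CD1d tetramer, and each sort was made for 2 pools. The study's methods note weak tetramer staining in this sort, and the labels give no ages for these animals. All 8 populations were marked with hashtag antibodies and run as 1 droplet library read from the 5′ end of transcripts, so no population was a separate library.

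Nearly all hashtag UMIs, 99.9%, lay on 8 matrix rows numbered 11 to 18. The sources used here do not say which of these rows marks which population, so each row stands for an unassigned population and none is given a stage or a genotype. Values are therefore printed per hashtag row, with no test and no p-value. Intervals are 95% intervals for counting error only. Levels are in CPM, the UMIs of a gene per 1000000 gene UMIs of the same cells.

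The even rows (12, 14, 16 and 18) held 5758 cells and carried the markers of mature iNKT1 cells, with 3139 CPM summed over 6 genes, against 163 CPM in the odd rows (11, 13, 15 and 17). The 4249 cells of the odd rows were mixed. They were divided by the first of 4 limits a cell passed. These were 2 UMIs of Cd79a, a chain of the B cell receptor complex, 5 UMIs of Cst3, a protease inhibitor abundant in dendritic cells, 1 UMI of the recombinase gene Rag1, and 2 UMIs of Ikzf2, which encodes Helios. The Cd79a class (810 cells) held 4688 CPM of 6 B cell markers, against 17.98 to 40.2 CPM in the other classes. The Cst3 class (972 cells) held 12925 CPM of 7 conventional dendritic cell markers, Cst3 among them. The Rag1 class (418 cells) led in the markers of CD4+ CD8+ double positive thymocytes, and the Ikzf2 class (1106 cells) in those of strongly signalled thymocytes. Each of these marker lists includes the gene that set the limit. The Cd79a class also led in 6 plasmacytoid dendritic cell markers, the member Bst2 among them. They summed to 3027 CPM there, against 1474 in the Cst3 class, 1038 in the Rag1 class and 499 in the Ikzf2 class. Another 943 cells passed none of the limits and are called the rest. The plasmacytoid dendritic cell markers summed to 1034 CPM in the rest. Cells of the even rows were shallower, with median UMI counts of 3258 to 3804 per row against 6500 to 8068 in the odd rows. Droplets also hold free RNA. Cd79b, a B cell gene, had 9.32 CPM in the even rows, 1.18% of its level in the Cd79a class. Lyz2, a myeloid gene, had 15.7 CPM there, 6.26% of its level in the Cst3 class, and Klrb1c, which encodes NK1.1, had 6.30 CPM in the Ikzf2 class, 1.54% of its level in the even rows. Nkg7, another gene of cytotoxic lymphocytes, had 136 CPM in the Ikzf2 class, 8.88% of its 1535 CPM in the even rows. How much of these values was free RNA and how much was made by the cells themselves was not tested.

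Type I interferons signal through the receptor chains Ifnar1 and Ifnar2 and the kinases Jak1 and Tyk2 to a complex that contains Stat2 and Irf9. The complex binds the interferon-stimulated response element (ISRE) in the promoters of its target genes. Type II interferon, the product of Ifng, signals through Ifngr1 and Ifngr2 to a STAT dimer that binds the gamma-activated site (GAS). Many target genes block viruses, and a low, steady activity of the same genes is known from thymocytes and resting immune cells in the absence of infection.

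The response element could be searched for directly in the promoters. RefSeq windows on GRCm38.p6, the assembly also called mm10, cover 250 bases before to 50 bases after a gene's start and were at hand for 30 of the 40 listed genes. Usp18, Oas2, Dhx58, Zbp1, Mx1, Gbp6, Parp9, Parp14, Ifi27l2a and Rtp4 had none. The ISRE core was searched as GAAANNGAAA on both strands, with overlapping matches counted, and it read TTTCNNTTTC where it lay on the other strand. It occurred in the windows of 17 of 30 members, or 56.7%, against 3.99% of all 27025 genes with a window. The GAS core TTCNNNGAA, which reads the same on both strands, occurred in 7 of 30 members, or 23.3%, against 9.55% of all genes. A match describes the letters only.

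Stretches around the ISRE matches are shown for 10 members of different roles, each 5′ to 3′ along the gene's own strand with 15 bases on either side and the matches in capitals. Isg15 (chr4:156200860-156200911, minus strand) held 3 overlapping matches, which began 78 to 66 bases before the start. Ifit1 (chr19:34640770-34640828, plus strand), Ifit3 (chr19:34583358-34583431, plus strand) and Ifit3b (chr19:34607754-34607827, plus strand) held 2 separate matches each. Oas1a (chr5:120907515-120907560, minus strand), Irgm1 (chr11:48871420-48871465, minus strand) and Bst2 (chr8:71537572-71537617, minus strand) held 2 overlapping matches each. Gbp2 (chr3:142620589-142620628, plus strand), Gbp7 (chr3:142530268-142530307, plus strand) and Igtp (chr11:58199507-58199546, plus strand) held 1 match each.
Isg15: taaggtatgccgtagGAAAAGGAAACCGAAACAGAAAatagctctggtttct
Ifit1: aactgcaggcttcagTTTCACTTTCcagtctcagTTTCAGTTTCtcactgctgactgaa
Ifit3: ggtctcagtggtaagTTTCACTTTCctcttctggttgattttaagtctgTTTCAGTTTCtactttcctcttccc
Ifit3b: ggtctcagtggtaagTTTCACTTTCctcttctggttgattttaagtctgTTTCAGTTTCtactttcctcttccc
Oas1a: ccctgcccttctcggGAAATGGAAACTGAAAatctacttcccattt
Irgm1: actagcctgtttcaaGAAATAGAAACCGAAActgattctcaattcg
Bst2: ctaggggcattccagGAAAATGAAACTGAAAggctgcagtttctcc
Gbp2: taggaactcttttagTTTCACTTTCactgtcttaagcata
Gbp7: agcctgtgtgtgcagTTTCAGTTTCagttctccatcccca
Igtp: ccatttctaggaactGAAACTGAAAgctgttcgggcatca
The stretches of Ifit3 and Ifit3b were identical over all 74 bases. These neighbouring genes are close copies, as are several Gbp, Oas, Oasl, Phf11 and Trim30 genes. Reads that fit more than 1 copy could have been divided between them or lost in counting, so the levels of such members are less certain than the rest.

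The summed level of the 39 members was 2400 CPM (95% Poisson interval 2369 to 2431) in row 11, 1533 in row 13, 1384 in row 15 and 1103 CPM (1075 to 1131) in row 17. In the even rows it was 1958 CPM in row 12, 1668 in row 14, 2166 in row 16 and 2242 in row 18. Row 11 was thus the highest and row 17 the lowest of the 8, with a ratio of 2.18 (2.12 to 2.24). The odd rows lay on both sides of the even rows and spread more widely.

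The odd rows differed in makeup. Cells of the Cd79a class gave 22.1, 19.9, 10.5 and 8.06% of the gene UMIs of rows 11, 13, 15 and 17, in the order of their sums. Cells of the Cst3 class gave 43.0, 21.6, 28.6 and 21.3%, and cells of the Ikzf2 class 12.1, 24.5, 23.4 and 32.6%. Cells of the Rag1 class gave 6.68, 14.4, 20.2 and 19.5%. Row 15 thus held more of the Cst3 and Rag1 classes than row 13. It held less of the Cd79a class and slightly less of the Ikzf2 class, and had the lower sum. With every odd row given the mean class weights of the 4 rows, row 11 came to 1838 CPM, row 13 to 1504, row 15 to 1530 and row 17 to 1397, and the ratio of the highest to the lowest was 1.32 in place of 2.18. Within a class the rows differed less, apart from the Cst3 class.

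**Figure D1:**
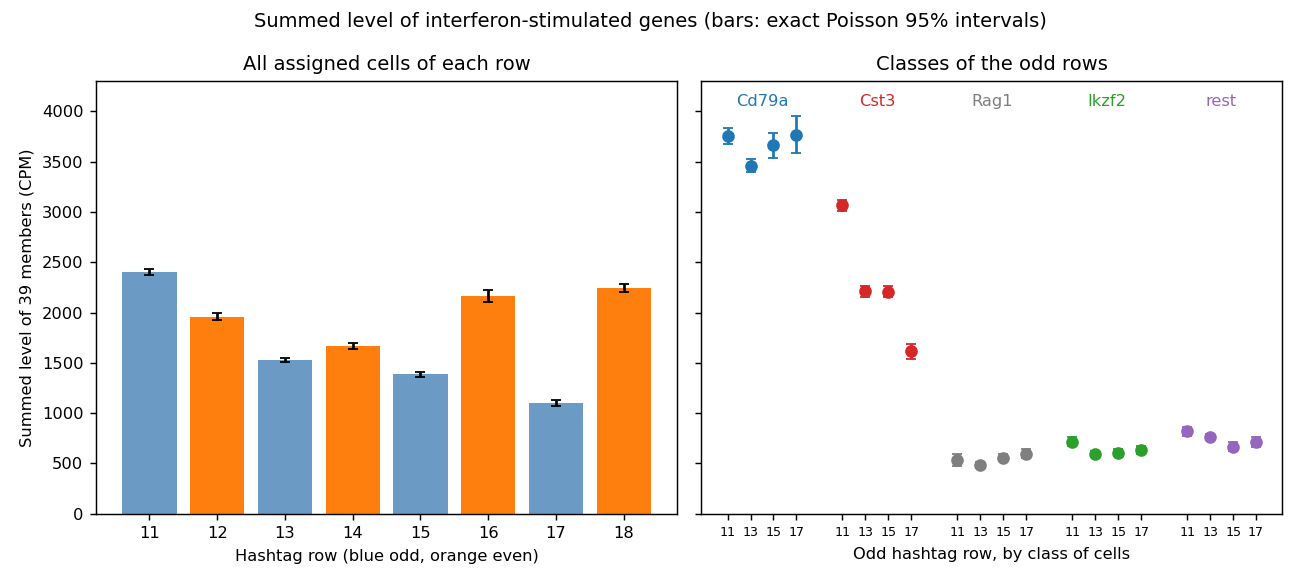
Summed level of the 39 members in CPM, for all assigned cells of each hashtag row (bars, left) and for each class of cells in the 4 odd rows (points, right), with exact Poisson 95% intervals. The Cd79a class lies between 3458 and 3769 CPM in all 4 odd rows, while the Rag1, Ikzf2 and rest classes reach at most 818 CPM.

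Classes differed far more than rows. Over all odd rows, the members summed to 3607 CPM in the Cd79a class, 2472 in the Cst3 class, 748 in the rest, 624 in the Ikzf2 class and 533 in the Rag1 class, and to 1945 CPM in the even rows. The Cd79a class ranged from 3458 to 3769 CPM over the 4 odd rows, the Ikzf2 class from 599 to 717 and the Rag1 class from 481 to 598. The Cst3 class had the widest range, from 1614 CPM in row 17 through 2207 in row 15 and 2209 in row 13 to 3063 in row 11. Relative to the Ikzf2 class, the sum was 5.78-fold (95% interval 5.61 to 5.95) in the Cd79a class, 3.96-fold (3.85 to 4.08) in the Cst3 class, 3.12-fold (3.03 to 3.21) in the even rows, 1.20-fold (1.15 to 1.24) in the rest and 0.854-fold (0.816 to 0.894) in the Rag1 class. Taken within rows 11, 13, 15 and 17, the ratios were 5.23, 5.78, 6.04 and 5.93 for the Cd79a class, 4.27, 3.69, 3.64 and 2.54 for the Cst3 class, 1.14, 1.28, 1.10 and 1.12 for the rest and 0.741, 0.803, 0.920 and 0.941 for the Rag1 class. Each class thus lay on the same side of the Ikzf2 class in all 4 odd rows. For the Rag1 class, the intervals of rows 15 and 17 reached up to 1.00 and 1.04.

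Much of the value of the Cd79a class came from Ifi27l2a, which encodes a small hydrophobic protein of the response, with 39.9% of the member UMIs. Ifi27l2a held 18.6% of the member UMIs in the even rows and 7.01% in the Ikzf2 class. Bst2, the membrane protein tetherin that holds budding viruses at the cell surface, gave 33.8% of the member UMIs of the Rag1 class. Without these 2 members the sum of the Cd79a class was 3.91-fold that of the Ikzf2 class.

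**Figure D2:**
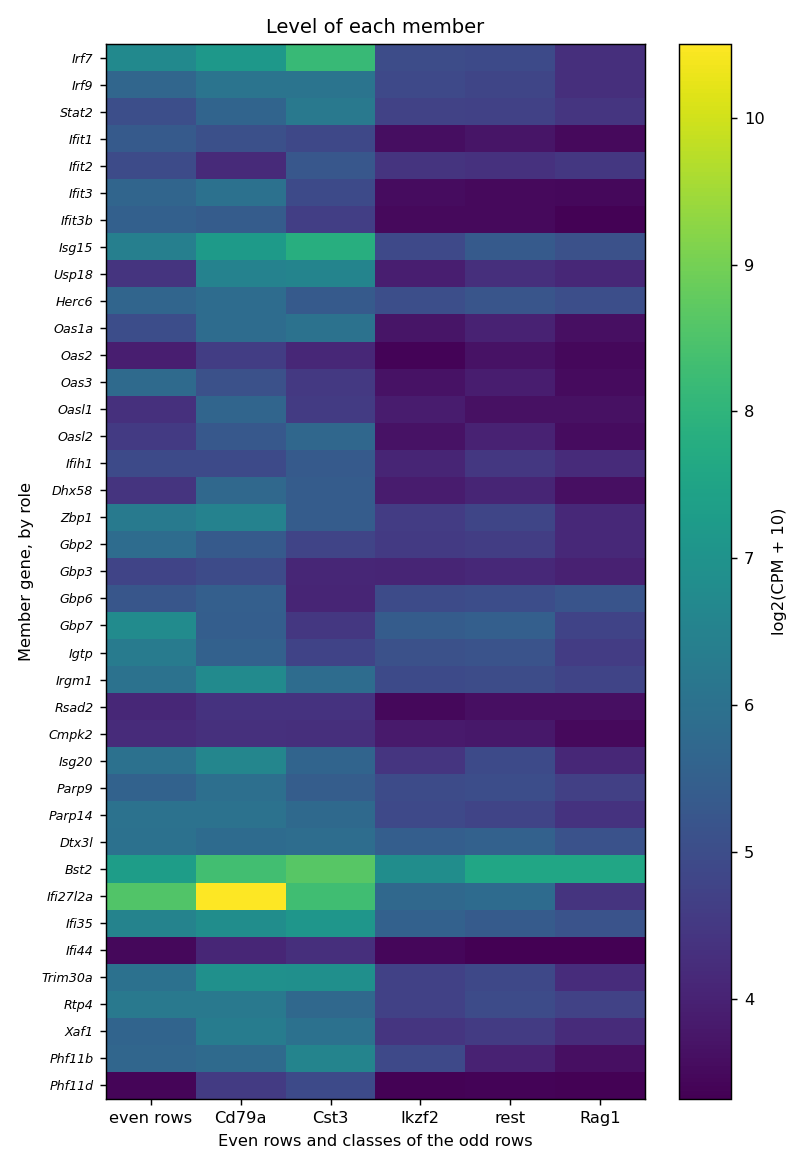
Level of each of the 39 members as log2(CPM + 10), in the even rows and in the 5 classes of the odd rows, with members ordered by role. Colours are to be read along a row, since levels of different genes are not compared. Ifi27l2a in the Cd79a class is the brightest field, at 1439 CPM, and the 3 right-hand columns (Ikzf2, rest and Rag1) are darker than the 3 left-hand columns for most members.

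For single genes, a member was compared where it had at least 50 UMIs in both groups together, and it was called higher or lower where CPM + 10 differed at least 2-fold. The added 10 CPM keeps low genes from being called on few UMIs. In the even rows, 18 of 37 members compared were called higher than in the Ikzf2 class and 0 lower, beside 5.15% of 11156 genes called higher and 7.58% called lower. The median log2 ratio was 0.96 over the members and -0.16 over all genes. All 4 even rows lay above all 4 odd rows of the Ikzf2 class for 35 of 37 members, beside 20.6% of all genes. Usp18 and Oas2 were the exceptions. Ifi44 and Phf11d had too few UMIs. Without the 225 cells of the even rows that passed a marker limit, the ratio of the sums was again 3.12 (3.03 to 3.21) and 18 members were called higher. With 1 CPM added in place of 10, 28 members were called higher.

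Of the transcription factors, Irf7, which amplifies the response, was called higher. It had 106, 85.1, 88.9 and 106 CPM in rows 12, 14, 16 and 18, and 24.6, 17.04, 21.9 and 29.0 CPM in the Ikzf2 class of rows 11, 13, 15 and 17. The even rows were all at least 85.1 CPM and the Ikzf2 class nowhere above 29.0 CPM, with a ratio of 4.45 (3.83 to 5.21). Irf9 and Stat2, the subunits of the complex that binds the ISRE, showed smaller log2 ratios of 0.79 and 0.32.

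The IFIT genes, whose proteins bind viral RNA, had 3 of 4 members called higher. Ifit3 had 44.4, 23.7, 53.0 and 56.7 CPM in the even rows and 5.93, 0.838, 0.975 and 1.70 CPM in the Ikzf2 class. Ifit1 had 32.5, 22.3, 48.2 and 32.2 CPM, against 1.70, 2.51, 1.46 and 1.70 CPM. Row 14 was the lowest even row for both genes. The ratios were 23.4 (14.1 to 41.9) for Ifit3 and 15.4 (9.54 to 26.6) for Ifit1. Ifit3b followed Ifit3 closely, with 38.7, 18.3, 53.0 and 52.2 CPM in the even rows. Ifit2, of the same chromosome 19 cluster, differed less, with 21.2 CPM against 11.2 CPM.

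Isg15, a ubiquitin-like protein that is joined to other proteins, had 85.7, 54.7, 88.5 and 87.4 CPM in the even rows and 29.7, 18.2, 26.3 and 10.2 CPM in the Ikzf2 class. Again row 14 was the lowest even row, still above the Ikzf2 class of all 4 odd rows. Usp18, the protease that removes Isg15 and dampens the receptor, had 13.7, 7.25, 11.8 and 14.02 CPM against 8.48, 3.07, 9.26 and 2.27 CPM, and these ranges overlapped. Herc6, the ligase that attaches Isg15 in mice, had a log2 ratio of 0.62 and was not called.

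Members of the OAS family, whose active enzymes answer double-stranded RNA with a signal that turns on an RNase, were not alike. Oas3 had 34.7, 38.9, 60.4 and 65.8 CPM in the even rows against 4.24, 1.96, 2.92 and 2.84 CPM, a ratio of 17.3 (11.5 to 27.4). Its neighbour Oas1a had a ratio of 6.71 (4.61 to 10.1). Oas2, from the same chromosome 5 cluster, had 5.17 CPM against 0.467 CPM pooled, and its rows overlapped. Oasl1, which limits Irf7 translation, had 9.76 CPM against 4.67 CPM.

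The GTPases of the Gbp and Irg families, which attack the membranes of vacuoles that hold pathogens, gave 4 of 6 members called higher. Gbp7 had 96.6, 98.1, 99.4 and 112 CPM in the even rows and 33.9, 30.2, 38.99 and 27.2 CPM in the Ikzf2 class. Igtp had 67.6, 62.5, 68.8 and 82.9 CPM against 22.0, 26.8, 19.5 and 26.1 CPM. Gbp2 had 44.6, 38.5, 75.8 and 55.9 CPM against 14.4, 14.5, 13.2 and 10.8 CPM. For all 3 genes each even row exceeded the Ikzf2 class of each odd row. The even rows were closer together for Gbp7 than for the IFIT genes, with row 12 the lowest. Irgm1 had a log2 ratio of 1.10, and Gbp3 and Gbp6 had 0.73 and 0.28.

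Among the remaining roles, Zbp1, a sensor of Z-form nucleic acid, had a log2 ratio of 1.65, and the RNA helicase sensors Ifih1 (MDA5) and Dhx58 (LGP2) had 0.86 and 0.53. Isg20, an exonuclease, was called higher at 1.57, while Rsad2 (viperin) and its neighbour Cmpk2, enzymes of nucleotide metabolism, were low in both groups. Of the genes of ADP-ribosylation, Parp14 was called at 1.12, and Parp9 and its partner Dtx3l had 0.61 and 0.52. Ifi27l2a had the largest log2 ratio of all members, 2.79, with 348, 317, 416 and 420.0 CPM in the even rows against 54.2, 41.1, 35.6 and 51.7 CPM. Rtp4 (1.52), Trim30a (1.30) and Xaf1 (1.21) were also called higher, and Bst2 (0.48) was not.

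**Figure D3:**
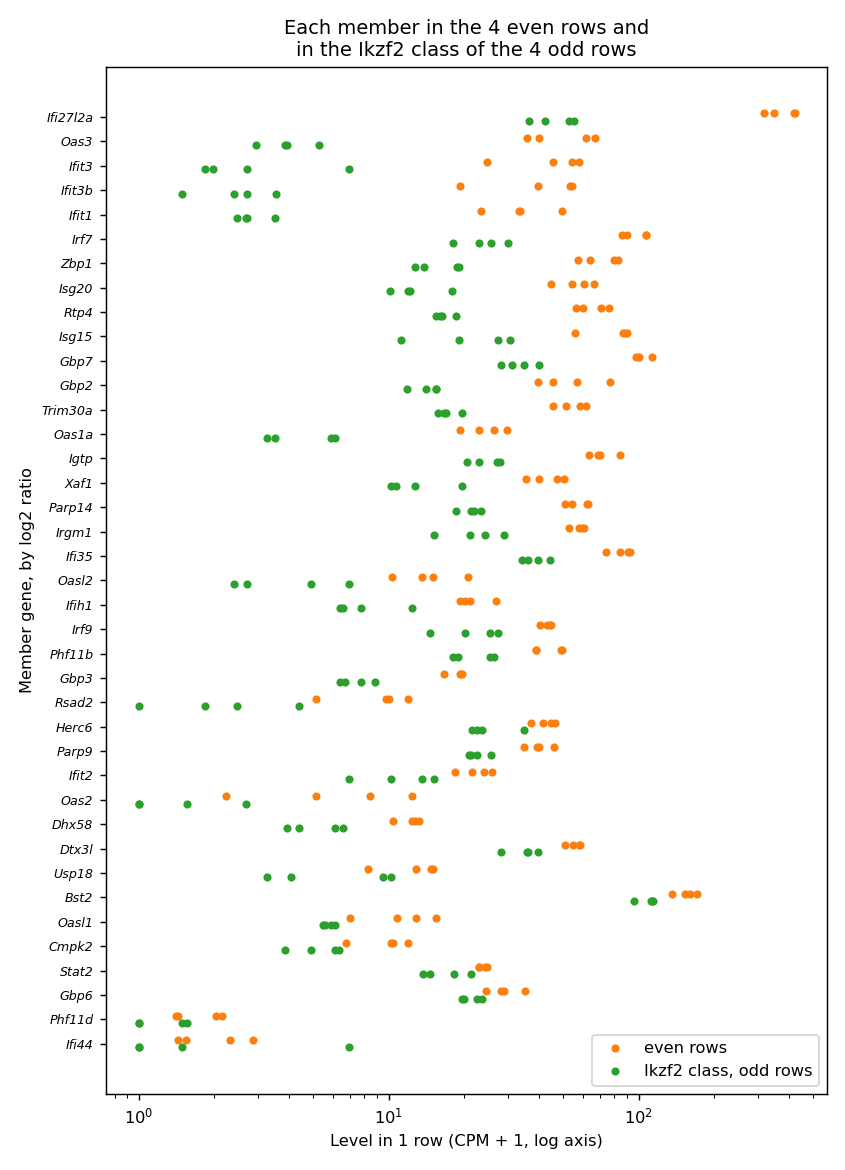
Level of each member (CPM + 1, log axis) in the 4 even rows (orange) and in the Ikzf2 class of the 4 odd rows (green), 1 point per row, with members ordered by log2 ratio. The colours do not overlap for 35 of the 37 members compared, and Ifi27l2a, Oas3 and Ifit3 stand at the top.

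In the Cd79a class, 24 of 39 members were called higher than in the Ikzf2 class and 0 lower, beside 7.09% of all genes called higher and 13.4% called lower. All odd rows of the class lay above all odd rows of the Ikzf2 class for 35 of 39 members, beside 12.1% of all genes. In the Cst3 class, 21 of 39 members were called higher and 0 lower, beside 6.78% and 4.23% of all genes, and 30 of 39 members had all rows above, beside 16.8% of all genes. The cells of these classes were deeper than those of the Ikzf2 class, with median UMI counts of 6002.5 and 10487 against 5517.5.

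These 2 classes and the even rows had different members on top. Over the 6 groups of cells, 16 members were highest in the Cd79a class, 15 in the Cst3 class and 8 in the even rows. The pooled 95% interval, which leaves out the spread over rows, lay clear of the next group's for 11, 10 and 5 of them. Gbp7, Igtp, Gbp2, Oas3 and Ifit1 were the 5 that led in the even rows by this measure. For Gbp2 and Ifit1 the rows overlapped those of the Cd79a class. Gbp2 had 38.5 to 75.8 CPM over the even rows and 28.8 to 43.7 CPM over the rows of the Cd79a class. Ifit1 had 22.3 to 48.2 CPM and 17.5 to 34.4 CPM. Gbp7 reached 101 CPM in the even rows (96.7 to 105), against 34.6 in the Cd79a class and 12.4 in the Cst3 class. The Cst3 class led by pooled intervals in Irf7, with 274 CPM (265 to 284), in Isg15, with 218 CPM, and in Bst2, with 384 CPM. For each of these genes its rows overlapped those of the Cd79a class. Isg15 had 117 to 308 CPM over the rows of the Cst3 class and 120 to 167 CPM over those of the Cd79a class. In row 17 it was lower in the Cst3 class, with 117 against 136 CPM. In the Cst3 class, 0 of the 6 GTPases were called higher. The Cd79a class led by pooled intervals in Ifi27l2a, with 1439 CPM (1410 to 1469), and in Irgm1, Dhx58 and Oasl1. For these genes its rows did not overlap those of the next group. All 5 OAS members were called higher in the Cd79a class.

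Some members were nearly confined to the Cd79a and Cst3 classes. Phf11d, a gene of the PHD finger family, had 13.6 CPM (10.9 to 16.7) in the Cd79a class, 20.4 CPM (17.9 to 23.3) in the Cst3 class and 0.781 CPM (0.446 to 1.27) in the even rows. Its close neighbour Phf11b on chromosome 14 was different, with 41.3 CPM in the even rows and 20.1 CPM in the Ikzf2 class. Ifi44 had 9.54 CPM in the Cst3 class, 1.07 CPM in the even rows and 0 UMIs in the rest, which allows up to 0.432 CPM (3 UMIs). Usp18 had 81.2 and 83.8 CPM in the Cd79a and Cst3 classes and 11.3 CPM in the even rows, whereas Isg15, its substrate, had 75.4 CPM in the even rows.

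The thymocyte classes were close to each other in their sums and in members called. In the Rag1 class, 0 of 28 members were called higher than in the Ikzf2 class and 2 lower, beside 0.521% and 4.72% of all genes. The 2 were Ifi27l2a, with 11.1 against 43.7 CPM, and Phf11b, with 2.15 against 20.1 CPM. Bst2 went the other way without being called, with 180.0 against 105 CPM. The median log2 ratio was -0.29 over these members and -0.09 over all genes, and 7 members were above 0. All rows of the Rag1 class lay below those of the Ikzf2 class for 9 members and above for 1. The share of all genes for these 2 counts is not given here. Cells of the Rag1 class were deeper, with a median of 13561.5 UMIs against 5517.5. In the rest, 0 of 32 members were called higher and 0 lower, beside 0.441% and 1.26% of all genes. Relative to the Rag1 class, the even rows had 21 of 37 members called higher, beside 10.7% of all genes.

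The sums hide how the transcripts were spread over cells. The UMIs of 5 members, Ifit1, Ifit3, Isg15, Rsad2 and Usp18, were added up in each cell after thinning every cell to 2000 UMIs, and a cell with at least 3 was called index-high. This took out 552 shallower cells of the even rows and 53 of the Ikzf2 class. In the even rows, 168 of 5206 cells were index-high, 3.23% (95% Clopper-Pearson interval 2.76 to 3.74). The share was 4.00% (3.10 to 5.07) in row 12, 1.58% (1.07 to 2.23) in row 14, 4.72% (3.04 to 6.93) in row 16 and 4.34% (3.22 to 5.72) in row 18, so that row 14 stood below the other 3. In the Ikzf2 class, 4 of 1053 cells were index-high, 0.380% (0.104 to 0.970), or 0.221% without row 11, and in the Rag1 class 2 of 389, 0.514%. The share was 6.81% (5.16 to 8.79) in the Cd79a class and 10.3% (8.47 to 12.4) in the Cst3 class, where it ran from 2.11% in row 17 to 14.4% in row 11. Without thinning, the shares were 4.48% in the even rows, 1.54% in the Ikzf2 class, 27.8% in the Cd79a class and 29.9% in the Cst3 class. With a limit of 5 UMIs the share in the even rows was 1.67%. The limit was the same for all groups, whatever their mean level of the index genes.

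**Figure D4:**
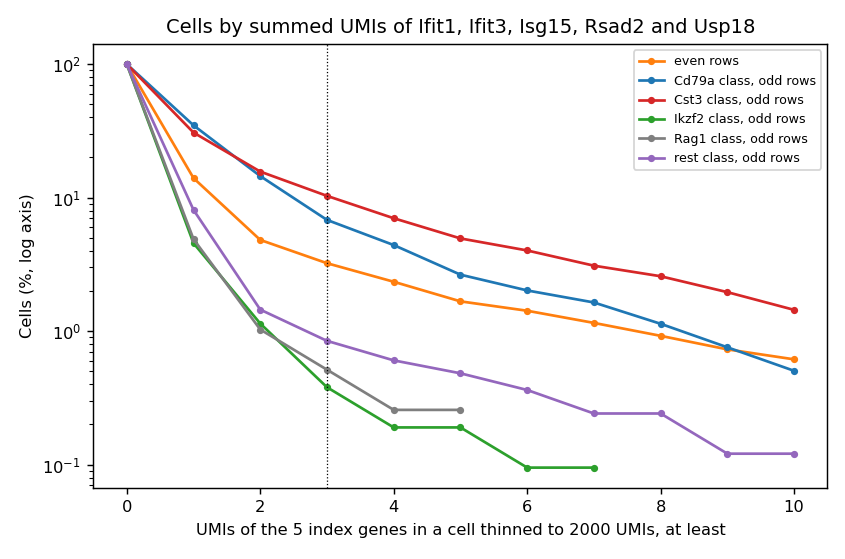
Share of cells (%, log axis) with at least the given number of UMIs of the 5 index genes after thinning to 2000 UMIs, for the even rows and the 5 classes of the odd rows. The dotted line marks the limit of 3 UMIs, where the even rows stand at 3.23%, between the Cst3 class at 10.3% and the Ikzf2 class at 0.380%.

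In the even rows, the index-high cells held 60.8% of the index UMIs and 17.97% of the UMIs of the other 34 members. These 34 summed to 9835 CPM (9592 to 10082) in index-high cells and to 1498 CPM (1481 to 1516) in the other cells. By row, the index-high cells had 10070 CPM in row 12, 8872 in row 14, 10208 in row 16 and 9961 in row 18, and the other cells had 1429, 1410, 1623 and 1667 CPM. The level per index-high cell thus varied less between the rows than the share of such cells. Row 14 was lowest in both.

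All 32 of the other members with enough UMIs were called higher in index-high cells of the even rows, beside 1.35% of 10259 genes, with a median log2 ratio of 2.35 against -0.06 over all genes. The cells had been chosen by related genes, so this describes how the members moved together from cell to cell. Ifit3b had the largest log2 ratio, 5.10, but its reads resemble those of the index gene Ifit3. Next came Cmpk2 at 3.67, from 3.32 to 159 CPM, then Isg20 at 3.24, Gbp6 at 3.18, Oasl2 at 3.12 and Irf7 at 3.10, from 75.6 to 725 CPM. The smallest was Gbp7 at 1.53, from 91.2 to 283 CPM, followed by Ifi35 at 1.61. Members with an ISRE match in the window had a median of 2.36 (13 genes) and those without 2.53 (11 genes). Between the even rows and the Ikzf2 class these medians were 1.29 (17 genes) and 0.79 (11 genes). The 17 genes include the index genes Ifit1, Ifit3, Isg15 and Rsad2, which the 13 leave out, so the 2 contrasts are not on the same genes.

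Index-high and other cells of the even rows were alike in depth, with medians of 3441 and 3514 UMIs and 1.63% and 1.68% mitochondrial UMIs. Their iNKT1 markers summed to 3044 and 3141 CPM and their B cell markers to 39.5 CPM in both. The 7 conventional dendritic cell markers were at 477 and 289 CPM, and their part in the result was not tested. Without the 225 cells past a marker limit, 3.16% of cells were index-high and again 32 members were called higher.

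The remaining cells still differed. Between cells that were not index-high, the even rows had 14 of 36 members called higher than the Ikzf2 class, beside 5% of all genes. The summed level of all 39 members was 1566 against 590.2 CPM, a ratio of 2.65 (2.57 to 2.73). This count and this ratio include the index genes, which had set the cells aside. Without the index genes, the other 34 members summed to 1498 against 568 CPM. Ifi27l2a (2.72), Oas3 (2.05), Irf7 (1.496), Zbp1 (1.44), Gbp7 (1.30) and Gbp2 (1.26) were among those called. For Rsad2, Usp18 and Cmpk2, the log2 ratios in these cells were 0.06, 0.06 and -0.11, and Rsad2 had under 50 UMIs. Since the index genes were used to set these cells aside, their own values here are a description only.

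Index-high cells of the other classes gave like counts. In the Cd79a class, 30 of 33 members were called higher in 54 index-high cells than in 739 others, beside 2.3% of all genes, and in the Cst3 class 30 of 34 in 100 cells against 870, beside 2.81%. The 34 members summed to 8136 CPM against 2999 CPM in the Cd79a class and to 7428 CPM against 1612 CPM in the Cst3 class. Index-high cells of these 2 classes and of the even rows thus lay between 7428 and 9835 CPM, while the other cells lay between 1498 and 2999 CPM. The same limit of index UMIs had chosen the index-high cells of each group. Other markers also differed between index-high and other cells. In the Cd79a class, the plasmacytoid dendritic cell markers other than the member Bst2 summed to 4129 CPM in index-high cells and 2631 in the others, the B cell markers to 5851 and 4604, the conventional dendritic cell markers to 1180.0 and 938, and the macrophage markers to 83.3 and 21.5. In the Cst3 class, the conventional dendritic cell markers summed to 14625 and 12765 CPM, the macrophage markers to 462 and 314, the plasmacytoid markers to 682 and 1128, and the double positive thymocyte markers to 61.8 and 362. Median UMI counts were 6365.5 and 6149 in the Cd79a class and 9380.5 and 10761.5 in the Cst3 class. The part of these differences in the result was not tested. Gbp7 was the only member with a log2 ratio below 0.5 in a class, at 0.35 in the Cst3 class, and Ifit2 reached 3.24 there against 2.02 in the even rows.

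**Figure D5:**
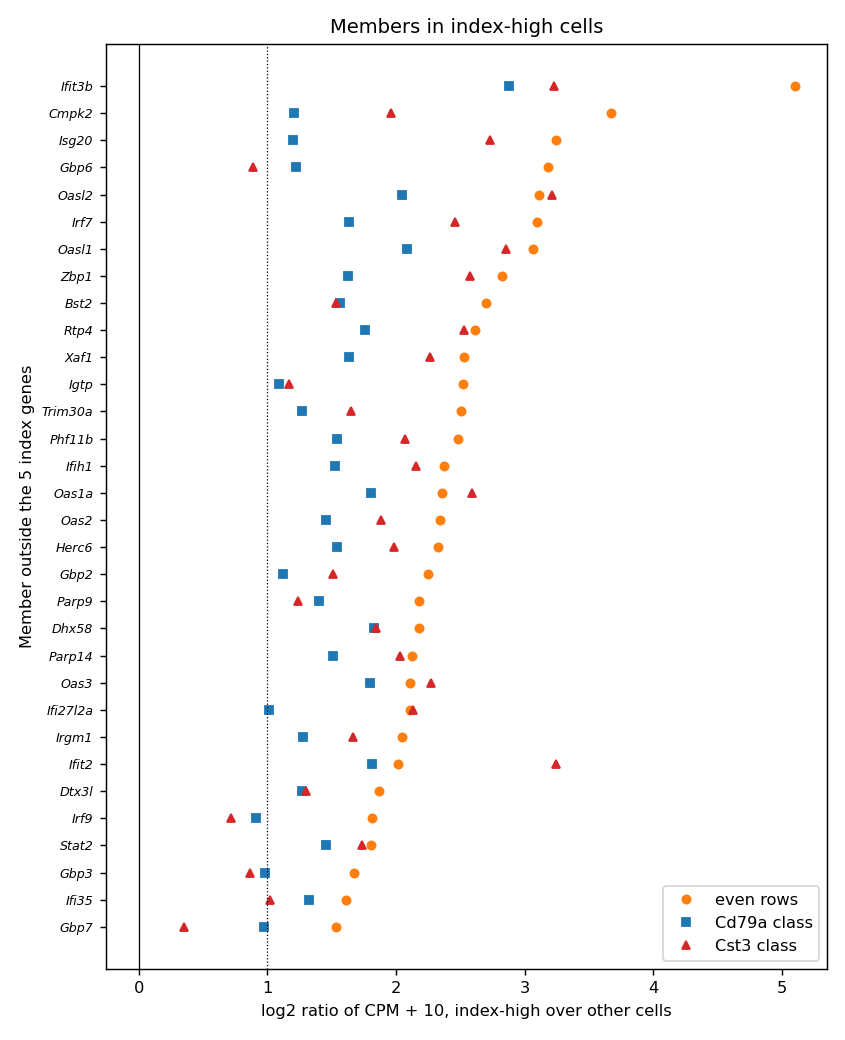
Log2 ratio of CPM + 10 between index-high and other cells, for the members outside the 5 index genes, in the even rows (circles), the Cd79a class (squares) and the Cst3 class (triangles). The dotted line marks 2-fold. All 32 circles lie beyond it, from Gbp7 at 1.53 to Ifit3b at 5.10.

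The ligands, receptors and kinases of the pathway were read for the same groups. Of 19 genes of type I and type III interferons, Ifnk alone had UMIs, 2 in 10007 cells. Ifng had 3296 UMIs in 1882 cells and stood at 158 CPM in the even rows against 2.10 CPM in the Ikzf2 class. The even rows also had more of the receptor chain Ifngr1, with 448 against 138 CPM, and less of Ifngr2, with 3.95 against 16.1 CPM. Ifnar1 had 81.2 against 45.6 CPM, and Ifnar2 hardly differed, with 106 against 104 CPM. The transcription factor Irf1 had 156 against 55.5 CPM, and the feedback inhibitor Socs1 129 against 48.8 CPM. Between index-high and other cells of the even rows, Ifnar1, Ifnar2, Ifngr1, Jak1, Jak2 and Tyk2 had log2 ratios between -0.15 and 0.29. Ifng was at 128 and 156 CPM. Socs1 and Irf8 were called higher, with log2 ratios of 1.04 and 1.17.

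Kidins220, the gene deleted in T-KO mice, had 19.7, 21.0, 14.5 and 13.9 CPM in rows 11, 13, 15 and 17 and 28.4, 35.2, 17.5 and 20.4 CPM in rows 12, 14, 16 and 18. No row lacked it, and no row was assigned to a genotype from these values. A comparison of the members between T-KO and Ctrl was therefore not made.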

How the data were processed

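Per the labels, the samples were 1 transcript library and 1 hashtag library of the same cells. The authors aligned and counted reads with Cell Ranger 6.0.0 and its prebuilt mm10 reference and deposited raw UMI counts of 16179 barcodes, with 85673127 gene UMIs. Cells were kept (12147) if they held 1000 genes or more and no more than 5% mitochondrial UMIs, and 10007 of them, 82.4%, had at least 80% of at least 10 hashtag UMIs on 1 of the rows 11 to 18. Doublets between hashtags leave by this step, and no other doublet caller was run. No barcode was listed more than once, and free RNA was not removed.

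The 40 genes, the index genes, the class limits and the lists were chosen with earlier results of these data known. All members are named, by role, with the pathway genes. UMIs were summed per group in Python 3.11.15 with scipy 1.17.1. CPM have exact Poisson intervals, shares Clopper-Pearson intervals at 95%, which cover counting error only. With no row paired to a population, nothing was tested. The comparison step was tested on simulated counts. These were Poisson draws without the spread between cells and rows seen in the data, so that test covers counting error only. Alternatives were assignment by HTODemux in Seurat 5.3.0 (R 4.3.3), other filters, scalings, thinning, pseudocounts and limits.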

Additional observations from a re-analysis of the deposited data

How the results depend on the processing

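No paired analysis was possible because the hashtag rows carry no genotype, stage or replicate number. This holds for the populations. The classes of cells lie within the same odd rows, so their ratios are also given row by row above. Of 227 recomputed sums, shares and counts, 180 stayed within their counting interval or within 1.5 times the count, 47 moved and 0 reversed, over 21 other settings. Of these settings 9 were chosen after seeing the data, 1 without the cells of the even rows past a marker limit and 8 that left out a hashtag row each. The cause of each move was not tested. The ratio of the highest to the lowest row, 2.18, was 1.97 with at most 4000 genes per cell, 2.06 in cells thinned to 2000 UMIs and 2.29 without Ifi27l2a and Bst2. Relative to the Ikzf2 class, the sum of the Cd79a class was 5.26, 6.01 and 3.91 under these 3 settings, that of the Cst3 class 4.78, 4.20 and 3.75, that of the rest 1.31, 1.39 and 1.10, and that of the even rows 2.80, 2.87 and 3.01. The Rag1 class came to 0.719 without the 2 genes. The Cst3 class was at 3.80 with HTODemux and at 3.82 without ribosomal, Gm and mitochondrial genes, a scaling that put the even rows at 3.31. The rest was at 1.27 with limits of 500 genes and 10% mitochondrial UMIs.

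With 1 CPM added, 28 members were called higher in the even rows, 2 lower in the Cst3 class and 1 lower in the rest. With at most 4000 genes, 2 were called lower in the Cst3 class, 1 higher in the Rag1 class, 1 higher and 1 lower in the rest. Thinned, 1 was called lower in the Cst3 class, 1 higher in the Rag1 class and 1 higher in the rest. Without ribosomal, Gm and mitochondrial genes, 2 were called lower in the Cst3 class and 1 lower in the rest. The index-high share of the even rows was 4.48% without thinning, 4.82% at a limit of 2 UMIs and 1.67% at 5, and that of the Ikzf2 class 1.54% without thinning and 1.14% at 2. Each cell of the even rows tended to hold fewer UMIs than those of the odd rows. Pooled, the even rows held 20495363 gene UMIs against 8571990 in the Ikzf2 class. Levels near 1 CPM thus rest on few UMIs in both groups, and on fewer in the Ikzf2 class.

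With each row left out in turn, the sum relative to the Ikzf2 class ran from 3.46 (without row 11) to 4.14 (without row 17) in the Cst3 class, from 1.15 to 1.22 in the rest and from 2.97 (without row 18) to 3.36 (without row 14) in the even rows. The index-high share of the even rows ran from 2.88% to 4.23%, the highest without row 14, and that of the Ikzf2 class from 0.221% to 0.495%. Between 0 and 1 members were called lower in the Cst3 class (Gbp7 without row 13, Gbp6 without row 17), and likewise in the rest (Phf11b without row 13).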
